A study of Mus musculus with 26 samples.

Results

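Of the 16035 peaks bound by Isl1 in TrkC+ neurons of the embryonic mouse dorsal root ganglion (DRG), 1971 (12.3%) were distal, lacked the authors' motif mark V$LHXF and stood apart from both partner factors. They were chosen by 3 properties. The authors' V$LHXF mark, a call of the LIM-homeodomain motif family in the Genomatix collection, was 0. The midpoint lay more than 1 kb from every annotated transcription start site (TSS) and outside the span of the BAC transgene on chromosome 4. No peak of Runx3 or Brn3a (*Pou4f1*) overlapped by 1 bp or more, after peaks under 300 bp had been widened to that width. Of the 16035 peaks, 11451 carried V$LHXF and 4584 (28.6%) did not. Of those 4584, 687 lay within 1 kb of a TSS, 67 in the BAC span and 3830 were distal. A further 1859 of the 3830 overlapped a partner factor (1135 with Brn3a only, 161 with Runx3 only and 563 with both), which left the 1971, called solitary motif-free peaks here. The name refers to the V$LHXF mark alone, not to the absence of every Isl1-like string. The choice rested on these readouts, so absence of the motif and of the partner factors is a description and not a result.

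Binding was mapped by CUT&RUN, in which an antibody tethers a nuclease that cuts out the bound DNA, and open chromatin by ATAC-seq. All samples came from mid-gestation E11.5 embryos, most of them of BAC-E-GFP mice, which carry a BAC of the *Runx3* locus with EGFP fused into the gene, on a mixed Cb6F1 background. In a minority of experiments the neurons were TrkC+ cells of GFP+ or WT embryos, and every sample pooled the ganglia of several embryos. There were 3 Isl1, 2 Brn3a, 8 Runx3 and 5 H3K27Ac CUT&RUN samples, 5 samples with normal rabbit serum as the control antibody, and 3 ATAC samples. The BAC adds copies of the *Runx3* region, hence the exclusion on chromosome 4. Each deposited list is 1 consensus over the samples of its antibody, with positions and motif marks but with no peak height, read depth or value for a single sample. The spread between samples could not be measured, and every interval and p-value below covers only the counting error over peaks of these lists. Identity of the cells as sensory neurons was not measured in these lists, as they hold no expression values.

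Isl1 (Islet1) is a LIM-homeodomain transcription factor: its homeodomain contacts DNA at sites built on a TAAT core, and its LIM domains bind the cofactor Ldb1, which bridges it to other factors. It is needed for the development of sensory and motor neurons, and in sensory neurons it acts beside the POU factor Brn3a. The Runt factor Runx3 marks the TrkC+ proprioceptive lineage. H3K27Ac is a histone mark of active enhancers and promoters. Peaks without the factor's own motif are common in binding maps of this kind, and the questions asked of the solitary motif-free peaks were which DNA they did contain, whether they lay in open or H3K27Ac-marked chromatin, and near which genes.

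Below are printed 9 stretches from the solitary motif-free peaks. They were chosen after their contents were seen, to show the 6-letter strings TAAGTG and TGAGTG, which turned out to distinguish these peaks from their flanks, and peaks near genes of sensory neurons. All are forward-strand sequence of the GRCm38.p6 assembly (mm10) from RefSeq, written in lower case. In the opening 7, capitals mark TAAGTG or TGAGTG or their reverse complements CACTTA and CACTCA. The leading 4 hold 4 or more copies, and the stretch near *Gm4791* is part of the peak chr9:46367400-46367700.
chr8:12587526-12587669, *Spaca7* intron: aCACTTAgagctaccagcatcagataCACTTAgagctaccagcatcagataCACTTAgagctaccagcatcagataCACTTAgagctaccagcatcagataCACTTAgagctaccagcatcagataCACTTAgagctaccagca
chr9:46367440-46367599, near *Gm4791*: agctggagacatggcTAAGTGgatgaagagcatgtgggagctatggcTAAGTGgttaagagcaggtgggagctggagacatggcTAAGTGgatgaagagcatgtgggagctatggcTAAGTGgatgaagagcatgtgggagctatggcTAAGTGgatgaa
chr2:116552590-116552863, distal to *Meis2*: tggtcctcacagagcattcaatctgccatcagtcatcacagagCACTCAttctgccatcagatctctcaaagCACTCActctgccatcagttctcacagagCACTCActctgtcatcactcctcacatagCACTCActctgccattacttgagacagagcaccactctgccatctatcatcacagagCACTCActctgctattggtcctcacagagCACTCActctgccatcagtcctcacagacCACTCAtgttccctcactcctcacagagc
chr19:56174387-56174564, between *Habp2* and *Tcf7l2*: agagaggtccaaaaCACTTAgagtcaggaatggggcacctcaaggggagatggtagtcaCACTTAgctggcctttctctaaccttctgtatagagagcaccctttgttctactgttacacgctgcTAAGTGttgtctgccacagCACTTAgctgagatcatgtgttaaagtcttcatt
chr13:115698325-115698507, distal to *Isl1*: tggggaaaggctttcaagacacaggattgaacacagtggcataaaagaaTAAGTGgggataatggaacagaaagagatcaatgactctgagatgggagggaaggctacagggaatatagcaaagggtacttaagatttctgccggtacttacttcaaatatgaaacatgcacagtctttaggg
chr9:119632854-119632979, near *Scn10a*: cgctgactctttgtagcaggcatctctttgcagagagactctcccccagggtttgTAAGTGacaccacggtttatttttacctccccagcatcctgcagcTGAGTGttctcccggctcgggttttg
chr1:63989137-63989305, near *Klf7*: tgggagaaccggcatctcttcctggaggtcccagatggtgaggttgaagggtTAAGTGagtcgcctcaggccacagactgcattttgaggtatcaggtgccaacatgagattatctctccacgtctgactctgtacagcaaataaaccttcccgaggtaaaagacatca
chr14:104314687-104314949, distal to *Pou4f1*, with none of these strings: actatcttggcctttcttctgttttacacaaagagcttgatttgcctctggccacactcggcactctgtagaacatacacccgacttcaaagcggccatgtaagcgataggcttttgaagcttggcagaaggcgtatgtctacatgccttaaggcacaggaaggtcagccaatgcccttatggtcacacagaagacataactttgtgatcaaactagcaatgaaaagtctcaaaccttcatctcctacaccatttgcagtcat
chr2:117263891-117264011, an intronic site in the domains of *Fam98b* and *Rasgrp1*, in which capitals mark a CTCF motif: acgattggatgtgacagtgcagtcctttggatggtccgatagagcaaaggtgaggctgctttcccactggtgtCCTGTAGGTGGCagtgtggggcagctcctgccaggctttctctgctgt

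The solitary motif-free peaks were short, at 147 bp for the median peak (112 and 190.5 bp at the quartiles, 74.0 to 574 bp in all) and a median G + C content of 50.0% (45.9 and 53.4%). The median widths were 192 bp for solitary Isl1 peaks with V$LHXF, 195 bp for motif-free Isl1 peaks shared with Runx3 or Brn3a and 153 bp for solitary Brn3a peaks without the Brn3a-family motif V$BRNF. Those classes had median G + C contents of 46.2%, 48.3% and 48.8%. A shorter interval has less room for any motif, so each motif share is given beside the share in stretches of the same length 2 kb to either side of the peaks (3942 stretches). All motifs were searched on both strands, and a match is a description of the letters, not of a site in use. No test was run on sequence, because the motif call had chosen the peaks.

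The TAAT core itself was not missing. It was present in 940 of the 1971 solitary motif-free peaks (47.7%), against 55.3% of their flanks, and in 97.1% of the solitary peaks with V$LHXF. The palindrome TAATTA, a form preferred by many LIM-homeodomain factors, was nearly absent (6 peaks, 0.304%, against 4.57% of flanks), and TAATGA was found in 5.23% of peaks and 7.97% of flanks. CTAATG went the other way, with 12.4% of peaks and 6.42% of flanks, while CTAATT was found in 4.36% of peaks and 5.73% of flanks. These 6-letter forms all contain the core and overlap one another. Following a TAAT in the solitary motif-free peaks, the next base was G in 46.3% and T in 16.4% of occurrences. In the solitary peaks with V$LHXF it was G in 41.2% and T in 32.2%.

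Among all 2080 strings of 6 letters (each counted together with its reverse complement), TAAGTG had the largest excess of peaks over flanks, 15.7 percentage points. It stood in 445 solitary motif-free peaks (22.6%), against 6.87% of flanks. AAGTGC, which overlaps it by 5 letters, followed with 22.2% and 7.56%. Rank 3 was AGTGCT, in 503 peaks (25.5%) and 12.0% of flanks. GAGTGC had rank 4 with 18.3% and 6.54%, and TGAGTG rank 5 with 442 peaks (22.4%) and 11.3% of flanks. TAAGTG or TGAGTG was present in 781 solitary motif-free peaks (39.6%, 95% Wilson interval 37.5 to 41.8%), against 17.3% of flanks. The longer string CTAAGTGC was present in 4.06% of peaks and 0.482% of flanks. About TAAGTG, the base before was C in 41.9% of occurrences in peaks and 30.3% in flanks, and the base after was C in 35.6% and 20.4%.

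The same strings marked the other Isl1 classes and were near the flank level in the Brn3a class. TAAGTG was found in 22.6% of the solitary motif-free peaks. It was in 32.1% of the solitary peaks with V$LHXF (flanks 8.60%), in 27.0% of the shared motif-free Isl1 peaks (flanks 8.77%), and in 9.71% of the solitary Brn3a peaks without V$BRNF (flanks 8.57%). TGAGTG was found in 22.4% of the solitary motif-free peaks, in 24.5% and 27.0% of the 2 other Isl1 classes, and in 12.6% of the Brn3a class (flanks 11.1%). Split by both kinds of string, 532 solitary motif-free peaks (27.0%) had TAAT only, 373 (18.9%) had TAAGTG or TGAGTG only, 408 (20.7%) had both and 658 (33.4%) had neither. In the flanks the shares were 45.5%, 7.48%, 9.79% and 37.2%. The share with neither was 1.54% in the solitary peaks with V$LHXF, most of which hold a TAAT by virtue of the mark.

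The strings were also more frequent near the midpoint than outside the peaks. They had been chosen for their excess over flanks in these same peaks, so the ratios below describe that excess again. They are not further support, and position within the peak was not tested. Counted within 40 bp of the midpoint, TAAGTG occurred 43.1 times per 1000 solitary motif-free peaks in each 20 bp bin, against 10.6 times at 300 to 500 bp from the midpoint, a ratio of 4.06. The ratio was 5.12 in the solitary peaks with V$LHXF and 1.36 in the Brn3a class. TGAGTG occurred 37.8 times in the centre and 16.4 times further out, a ratio of 2.3, against 1.88 in the solitary peaks with V$LHXF and 1.2 in the Brn3a class. TAAT behaved in the opposite way, with 104 occurrences per bin in the centre of the solitary motif-free peaks and 153 further out (ratio 0.675). In the solitary peaks with V$LHXF it was 354 and 171 (ratio 2.08). In the Brn3a class, chosen for lacking V$BRNF and not V$LHXF, it was 123 and 186 (ratio 0.660). Each of these classes was chosen by a motif mark, and the part of that choice in the TAAT ratios was not tested.

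**Figure D1:**
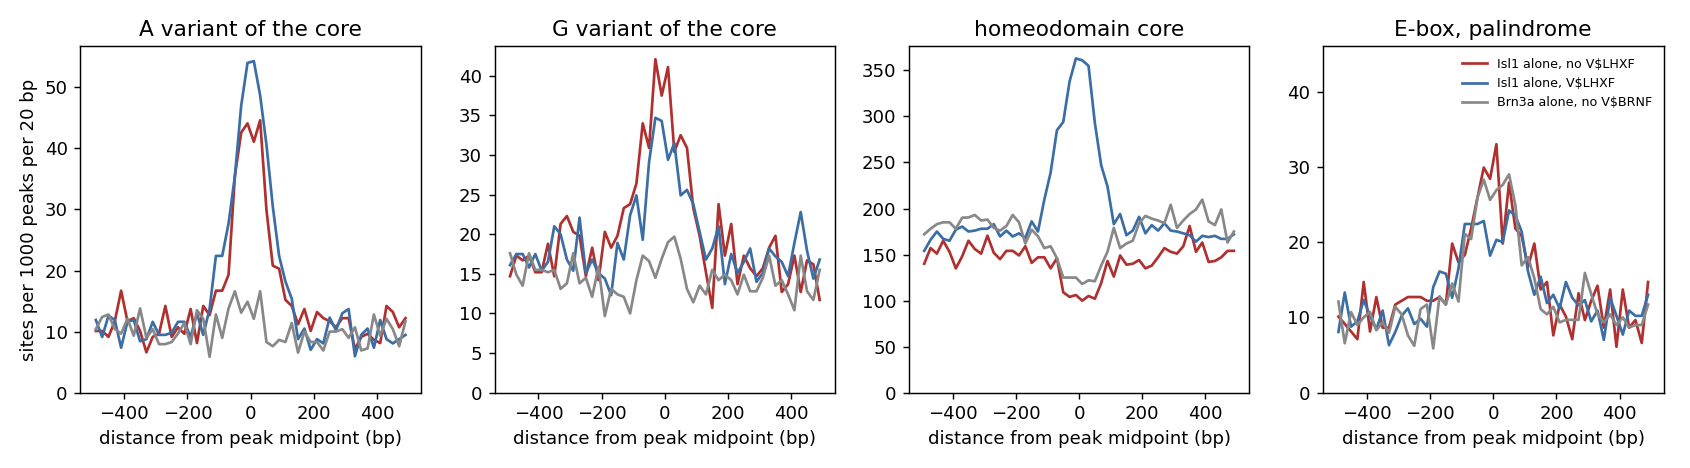
Sites per 1000 peaks per 20 bp (y axis) against distance from the peak midpoint in bp (x axis) for 4 strings, in solitary motif-free Isl1 peaks (red), solitary Isl1 peaks with V$LHXF (blue) and solitary Brn3a peaks without V$BRNF (grey). The A variant (TAAGTG) and G variant (TGAGTG) are most frequent in the centre of both Isl1 classes, to 43.1 and 37.8 sites within 40 bp of the midpoint of the red class, while the homeodomain core (TAAT) is at 104 in the red class. The variant names are labels, and a relation of these strings to the core was not tested.

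Strings read by other factors were present besides. The flanks were matched for length and not for base composition. Among all strings of 6 letters, CCCCAG was in 22.2% of peaks and 14.0% of flanks, and AAAAAA in 5.99% and 16.5%. The part of base composition in the shares below was not tested. The E-box CAGCTG, read by basic helix-loop-helix factors, was found in 374 solitary motif-free peaks (19.0%) and 8.47% of flanks. It had rank 6 among the strings of 6 letters, and its ratio of the centre to the bins further out was 2.68. It was about as frequent in the solitary peaks with V$LHXF (19.5%) and the Brn3a class (18.7%). TGACAG, the core read by MEIS and other TALE homeodomain factors, was in 19.0% of peaks and 11.6% of flanks. The EBF palindrome, read by the Ebf factors of differentiating neurons, was in 55 peaks (2.79%) and 0.482% of flanks, and the string CCCCAGGG in 5.07% and 1.17%. The RUNX motif was in 26.2% of peaks and 23.0% of flanks, and the SOX string ACAAAG in 13.1% and 12.9%. Both lay close to the flank level. Peaks that overlap Runx3 had been left out by the rule, so the RUNX share is a description and not a result. The cyclic-AMP response element TGACGTCA was in 0.406% of peaks and 0.0507% of flanks.

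**Figure D2:**
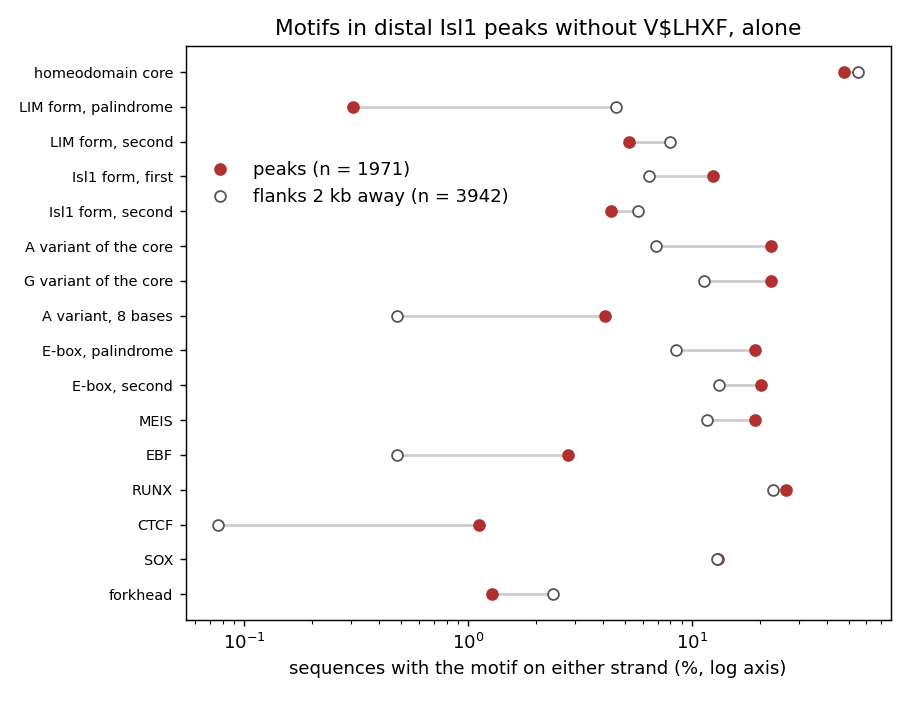
Share of sequences with each motif on either strand (x axis, %, log axis) in the 1971 solitary motif-free Isl1 peaks (filled) and in the 3942 flanks of equal length 2 kb away (open). The names A variant and G variant are labels, and a relation to the core was not tested. From the top the lettered forms are TAAT (core), TAATTA (palindrome), TAATGA (LIM, second), CTAATG (Isl1, first), CTAATT (Isl1, second), TAAGTG (A variant), TGAGTG (G variant), CTAAGTGC (8 bases), CAGCTG (E-box palindrome), CATCTG (E-box, second) and TGACAG (MEIS), and the A variant stands at 22.6% in peaks and 6.87% in flanks.

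Some of the peaks were tandem arrays of the strings. Of the solitary motif-free peaks, 73 (3.70%) held 2 or more TAAGTG, against 0.406% of flanks, and 6 (0.304%) held 4 or more, against 0 of 3942 flanks. Such peaks were not particular to the class: 4 or more TAAGTG stood in 3 of the solitary peaks with V$LHXF, in 4 of the shared motif-free peaks and in 13 of the shared peaks with V$LHXF, and in none of the solitary Brn3a peaks. The shares with 2 or more were 6.83%, 3.44%, 6.28% and 0.415% in the same order. The densest, chr8:12586948-12587195, in an intron of *Spaca7*, had 10 copies of TAAGTG, each 25 bp from the next. Its neighbour chr8:12587526-12587669, printed above, had 6 copies at the same spacing, and the pair shared 141 aligned bases at 100% identity. Both overlapped H3K27Ac and no ATAC peak. The peak chr9:46367400-46367700 near *Gm4791* had 7 copies, 32 to 38 bp apart, and chr12:112710652-112711006 near *Cep170b* had 6 copies, each 35 bp apart. The peak chr10:78066161-78066601, 441 bp wide and near *Icosl*, which encodes a ligand of the T-cell costimulator ICOS, had 5 copies with a commonest spacing of 62 bp. In chr19:56174387-56174564, between *Habp2* and the Wnt effector gene *Tcf7l2*, the 4 copies were 45, 66 and 19 bp apart, with no common unit.

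Arrays of TGAGTG lay elsewhere. The peak chr2:77080783-77080926, in an intron in the domains of *Ccdc141* and *Ttn*, had 9 copies spaced 4 to 23 bp apart. Distal to *Meis2*, a TALE homeodomain gene, 4 solitary motif-free peaks stood in a row: chr2:116550411-116550633 with 4 copies, chr2:116551426-116551670 with 3, chr2:116552590-116552863 with 7 and chr2:116553449-116553743 with 7. In the 2 peaks with 7 copies the commonest spacing was 29 bp. The nearest ATAC peak to the 4 lay 182 to 185 kb away, and the genome's repeat mask covered 10.2 to 46.7% of each. On chromosome 9, chr9:124256356-124256611 with 6 copies and chr9:124257612-124257824 with 5 overlapped both ATAC and H3K27Ac and were 78.9% and 100% masked.

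Most solitary motif-free peaks lay in chromatin that was neither open nor acetylated in these lists. An ATAC peak overlapped 389 of the 1971 (19.7%, 95% Wilson interval 18.0 to 21.6%) and an H3K27Ac peak 226 (11.47%, 10.1 to 12.9%). Over all 14331 distal Isl1 peaks, these included, the shares were 45.1% for ATAC and 18.0% for H3K27Ac. Both marks were present at 136 peaks (6.90%), ATAC only at 253 (12.8%), H3K27Ac only at 90 (4.57%) and neither at 1492 (75.7%). The 1492 did not just miss an ATAC peak by a short distance, since the nearest lay at a median of 11.4 kb. It was within 1 kb for 86 of them (5.76%) and over 10 kb away for 813 (54.5%). The nearest H3K27Ac peak was over 10 kb away for 1055 (70.7%).

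Compared with solitary Isl1 peaks that carry V$LHXF, no difference in either mark passed the threshold of 0.05 after Benjamini-Hochberg adjustment over the 9 Fisher's exact tests (two-sided). ATAC overlapped 19.7% of the solitary motif-free peaks and 22.1% of the solitary peaks with the motif (631 of 2854), an odds ratio of 0.866 with a 95% interval of 0.749 to 1.00 (adjusted p = 0.0624, Fisher's exact test). H3K27Ac overlapped 11.47% and 11% (313 of 2854), with an odds ratio of 1.05 and an interval of 0.873 to 1.27 (adjusted p = 0.609, exact test). Among open peaks only, H3K27Ac was present at 136 of 389 (35%) and 188 of 631 (29.8%), with an odds ratio of 1.27 and an interval of 0.958 to 1.67 (adjusted p = 0.109, exact test). Peak width moved with the marks and differed between the classes. Pooled within quartiles of width, the Mantel-Haenszel odds ratio for ATAC was 1.06 with an interval of 0.916 to 1.24 and thus on the other side of 1. For H3K27Ac it was 1.30 with an interval of 1.07 to 1.57, which passed the threshold.

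Overlap with a partner factor went with both marks by a wide margin. ATAC overlapped 19.7% of the solitary motif-free peaks, against 58.0% of the motif-free Isl1 peaks shared with Runx3 or Brn3a (1078 of 1859), an odds ratio of 0.178 with an interval of 0.154 to 0.206 (adjusted p = 1.3e-133, Fisher's exact test). H3K27Ac overlapped 11.47% against 30.6% (568 of 1859), an odds ratio of 0.294 with an interval of 0.247 to 0.350 (adjusted p = 2.1e-48, exact test). The class of like make-up for the other factor, solitary Brn3a peaks without V$BRNF, was also more often open. Here the ATAC shares were 19.7% and 52.7% (1525 of 2895), an odds ratio of 0.221 with an interval of 0.193 to 0.253 (adjusted p = 9.2e-123, exact test). The H3K27Ac shares were 11.47% and 27.5% (795 of 2895), an odds ratio of 0.342 with an interval of 0.290 to 0.403 (adjusted p = 3.1e-43, exact test). The classes differed in width as given above, and the part of width in these comparisons was tested only within quartiles, where all 4 calls held. The consensus rule differed too: the paper required a Brn3a peak in 2 of 2 samples and an Isl1 peak in 2 of 3. The part of this rule in the Brn3a comparisons was not tested.

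**Figure D3:**
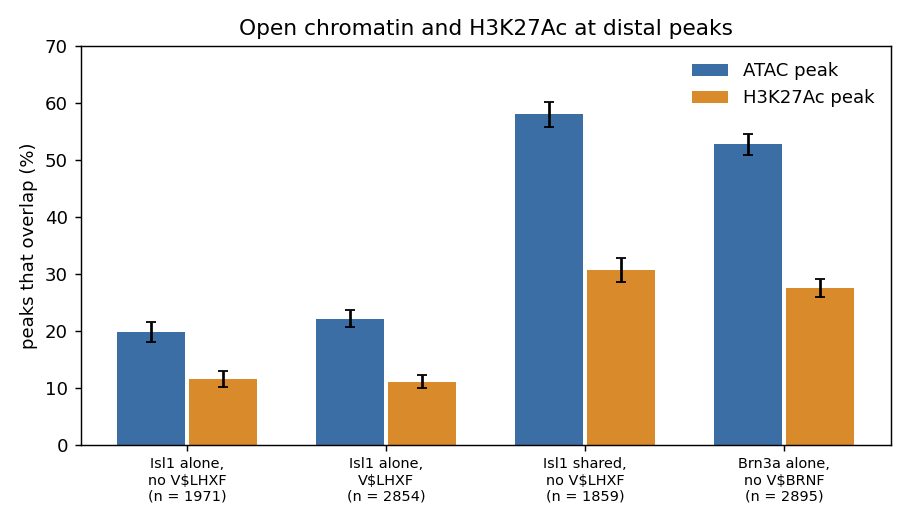
Share of distal peaks (y axis, %) that overlap an ATAC peak (blue) or an H3K27Ac peak (orange) in 4 classes of peaks, with 95% Wilson intervals as error bars. Solitary motif-free Isl1 peaks, at 19.7% and 11.47%, stand beside solitary Isl1 peaks with V$LHXF at 22.1% and 11%, and below both the shared motif-free Isl1 peaks and the solitary Brn3a peaks.

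Within the solitary motif-free peaks, base composition and some motifs differed by mark. Median G + C was 54.1% where both marks were present, 50.9% with ATAC only, 52.6% with H3K27Ac only and 49.2% with neither. Median widths were 180.5, 167, 172 and 139 bp in the same order. The E-box CAGCTG was in 30.9% of peaks with both marks, 27.3% with ATAC only, 28.9% with H3K27Ac only and 15.9% with neither. Width moved with the marks in the same direction, and its part in these shares was not tested. TGACAG was in 20.6% of peaks with both marks, 26.5% with ATAC only, 20% with H3K27Ac only and 17.6% with neither. TAAGTG did not follow openness: it was in 16.9% of peaks with both marks, 22.9% with ATAC only, 32.2% with H3K27Ac only (29 of 90) and 22.5% with neither. The motif of CTCF, the factor that anchors chromatin loops, was in 22 peaks (1.1%, against 0.0761% of flanks), and 19 of those 22 were open. It was in 6 of the peaks with both marks (4.41%), 13 with ATAC only (5.14%), 0 with H3K27Ac only and 3 with neither (0.201%). In the solitary Brn3a class the CTCF motif was in 202 peaks (6.98%).

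**Figure D4:**
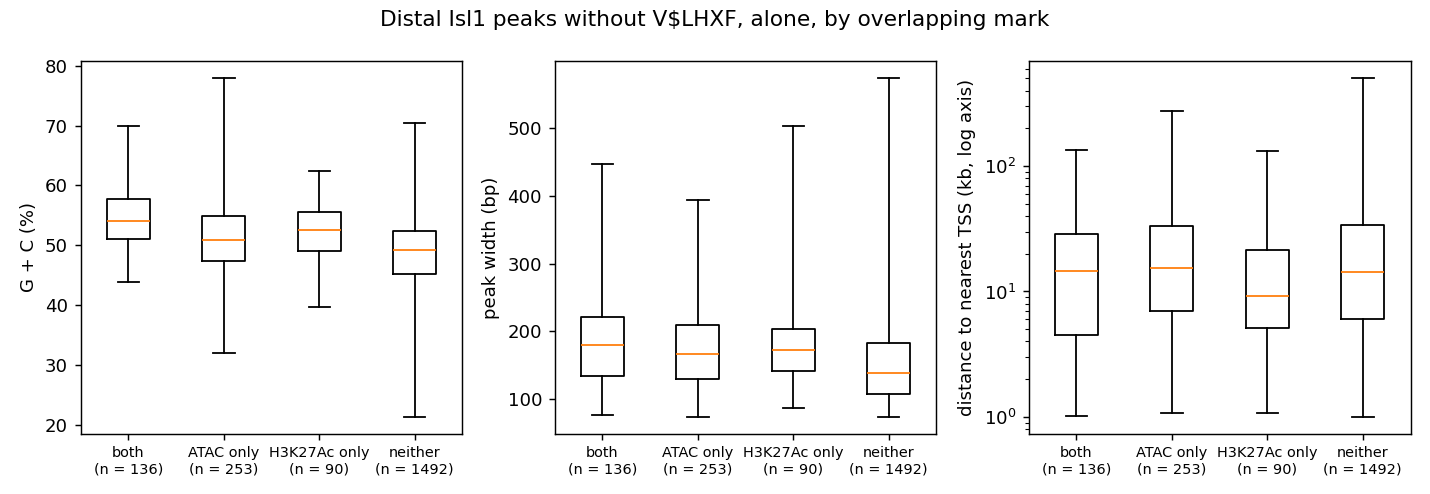
G + C content (%), peak width (bp) and distance to the nearest TSS (kb, log axis) of the solitary motif-free Isl1 peaks by overlapping mark, where the line is the median, the box spans the quartiles and the whiskers run from the lowest to the highest peak. Peaks with neither mark had the lowest median G + C (49.2%) and width (139 bp), against 54.1% and 180.5 bp with both.

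The 5 widest solitary motif-free peaks were of mixed kind. The widest, chr4:153174822-153175395 (574 bp), in the domains of *Ajap1*, an adherens junction gene, and the potassium channel subunit gene *Kcnab2*, overlapped neither mark, although an ATAC peak lay 353 bp away. The peak chr19:4301820-4302323 (504 bp), intronic near *Grk2*, a kinase of G-protein-coupled receptors, overlapped H3K27Ac only. Of the others, chr7:112035788-112036240 (453 bp, in the domains of *Dkk3* and *Usp47*) had neither mark, chr3:146347422-146347872 (451 bp, in the domains of *Lpar3* and *Ssx2ip*) had H3K27Ac only and chr18:80418224-80418670 (447 bp, in the domains of *Ctdp1* and *Kcng2*) had both. All 5 contained a TAAT. A wider peak has more room for any motif, and the part of width in this was not tested, so nothing is read from it.

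Peaks within 1 kb of a TSS had been removed by the rule. The median distance to a TSS was 14.3 kb (quartiles 5.92 and 32.2 kb, up to 503 kb), with 779 peaks (39.5%) within 10 kb and 103 (5.23%) over 100 kb away. A TSS lay within 10 kb of 35.6% of the solitary peaks with V$LHXF, 33.5% of the shared motif-free peaks and 37.1% of the solitary Brn3a class. Just beyond the limit of 1 kb, and so kept, were chr11:73000240-73000397 (1003 bp from *P2rx1*), chr17:73190614-73190742 (1007 bp from *Gm9311*) and chr3:108563381-108563586 (1017 bp from *Tmem167b*). Just short of it, and so left out, were chr11:12996598-12996742 (996 bp from *Gm12004*), chr2:92541898-92542024 (981 bp from *Gm13817*) and chr3:30646793-30646985 (980 bp from *Lrrc34*). The closest a Runx3 or Brn3a peak came to a solitary motif-free peak was 81 bp between deposited edges, and 93 of the peaks had one within 500 bp. Of the shared peaks, 15 touched no partner peak before widening, the farthest at 181 bp. The limits thus cut through a range of distances and do not part separate groups.

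Within a protein-coding gene lay 1076 of the solitary motif-free peaks (54.6%), against 1473 (51.6%) of the solitary peaks with V$LHXF, with an odds ratio of 1.13 and an interval of 1.00 to 1.27 (adjusted p = 0.0624, Fisher's exact test). Exons held 84 (4.26%) and 61 (2.14%) of them. The nearest other solitary motif-free peak was at a median of 285 kb, the nearest other Isl1 peak of any kind at 33.3 kb, the nearest Brn3a peak at 19.7 kb and the nearest Runx3 peak at 47.7 kb. Among autosomes the density ran from 0.459 peaks per Mb on chromosome 10 to 1.08 on chromosome 9. Chromosome X had 38 peaks, or 0.222 per Mb, and 59 solitary peaks with V$LHXF.

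Peaks with 50% or more of the interval in masked repeats were few, but their share exceeded that of the comparison class. The genome's soft mask covered 50% or more of the interval in 83 solitary motif-free peaks (4.21%), against 6 of the 1859 shared motif-free peaks (0.323%), an odds ratio of 13.6 with an interval of 5.96 to 38.1 (adjusted p = 9.1e-18, Fisher's exact test). The share was 1.54% in solitary peaks with V$LHXF and 0.553% in the Brn3a class. The size of the odds ratio depended on the definition: it was 2.99 for a limit of 25% masked (13.2% against 4.84%), 8.94 within quartiles of width and 22.0 without peaks that have a near-copy, all past the threshold. Counted by any masked base, the classes lay close together, at 41.2% and 42.8%, with an odds ratio of 0.938 (adjusted p = 0.385, exact test). Of the 83 masked peaks, 72 had neither mark, 6 had both, 4 had ATAC only and 1 had H3K27Ac only. Over all solitary motif-free peaks, 75.7% had neither mark. The authors removed peaks by overlap with the UCSC RepeatMasker annotation, which was not used here. In the soft mask of the genome file used here, a different source, 46 of the solitary motif-free peaks (2.33%) were over 60% masked. The paper describes the removal without limiting it to Isl1, so Runx3 and Brn3a peaks in repeats may be missing too. A masked Isl1 peak would then have fewer partner peaks to overlap and count as solitary more often. The part of this in the odds ratio was not tested. Tandem repeats of at least 15 bp were present in 54 peaks (2.74%), of which 22 were of CA or AC units and 14 of GA or AG units. The share was 2.26% in the shared motif-free peaks and 2.63% in the shared peaks with V$LHXF. It was 1.86% in the solitary peaks with V$LHXF and 1.90% in the Brn3a class, so the classes lay close together.

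Near-copies elsewhere in the genome, at 90% identity or more over at least 80% of the peak, were found for 63 solitary motif-free peaks (3.20%). The shares were 1.09% in the solitary peaks with V$LHXF, 0.753% in the shared motif-free peaks and 0.622% in the Brn3a class. At 13 of the 63 there were 10 or more copies. Neither mark was present at 42 of the 63, beside 75.7% of all solitary motif-free peaks. The extreme was chr1:26665817-26665897, fully masked, with 11438 near-copies. The position of reads from such sequences is uncertain. Some solitary motif-free peaks were copies of each other: chr17:6380559-6380801 and chr17:6547413-6547696 aligned at 100% over 243 bp, and 3 peaks on chromosome 14 (chr14:43935966-43936172, chr14:43938612-43938977 and chr14:44027342-44027472) aligned pairwise at 95.7 to 98.3%. In all, 10 of the peaks formed 8 such pairs.

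To place the peaks near genes, each protein-coding gene was given a regulatory domain of 5 kb upstream and 1 kb downstream of its TSS, extended up to 1 Mb towards the neighbouring genes. Of 21911 genes, 2784 (12.7%) had at least 1 solitary motif-free peak in the domain: 2150 had 1 peak, 443 had 2 and 191 had 3 or more. Domains overlap, so 1740 of the 1971 peaks counted for 2 or more genes and 14 for none. For 686 genes these were the only Isl1 peaks in the domain. A Brn3a peak was present in the domains of 2388 of the 2784 genes (85.8%) and an ATAC peak in 2742 (98.5%). The same shares over all genes were not counted, so nothing about these genes is read from them. The median domain was 303 kb for genes with a solitary motif-free peak and 76.7 kb for genes without. The share of genes with a solitary motif-free peak grew with domain length, from 1.28% in the 4383 genes with the shortest domains to 33.6% in the 4382 with the longest, so each gene list is given with its median domain length. Its part in the list shares was not tested.

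*Ajap1* and *Sdk2*, which encodes a synaptic adhesion protein of the immunoglobulin family, had the most solitary motif-free peaks, 7 each. At *Ajap1* 5 of the 7 had neither mark, 1 had ATAC only and 1 had both. At *Sdk2* 5 had neither and 2 had both, one of them, chr11:114068501-114068646, only 1.53 kb from the *Sdk2* TSS. Next came 5 genes with 6 peaks: *1700012A03Rik*, *Med13l* (a subunit of the Mediator kinase module), *Meis2*, the presynaptic adhesion gene *Nrxn3* and *Tcerg1l*. At *Med13l* and *Tcerg1l* all 6 had neither mark. The 8 that followed by the naming rule had 5 peaks each, namely *Bcor* (a transcriptional corepressor), *Fbxw7* (a ubiquitin ligase subunit), *Gatb*, *Glrx3*, *Irx1* (an Iroquois homeobox gene), *Kcnab2*, *Megf11* and *Mpped2*. *Phactr1*, *Rab11a* and *Rpl38* also had 5 and were passed over by the rule, which settles ties by symbol. Domains of the 15 genes spanned 902 to 1660 kb apart from that of *Megf11*, where 5 peaks in 390.5 kb made 12.8 per Mb. Its neighbour *Rab11a* shares all 5, in 419.7 kb, or 11.9 per Mb, as *Rpl38* shares its 5 with *Sdk2*. At *Megf11*, a relative of the phagocytic receptor Draper of flies, all 5 had neither mark. *Ajap1* and *Kcnab2* are neighbours and share peaks, as do *Gatb* and *Fbxw7*. All 5 at *Glrx3* also counted for its neighbour *Tcerg1l*.

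Transcription factor genes of sensory neurons had a solitary motif-free peak in 16 of 39 domains (41.0%, 95% Wilson interval 27.1 to 56.6%), against 12.7% of all genes. Their median domain was 290.1 kb, against 89.7 kb over all genes, and per Mb of domain they held 1.14 peaks, against 0.803. Genes used by every cell (1.60, 3 peaks), sympathetic and chromaffin genes (1.54, 5 peaks) and neurotrophic factor receptor genes (1.52, 9 peaks) had more per Mb. By density the sensory factor genes, with 25 peaks, thus did not stand first. With such small counts the order is not read further. *Isl1* itself, at chr13:116298281-116309689, had 3, which also counted for its neighbour *Itga1*: chr13:115466677-115466863, chr13:115698325-115698507 and chr13:115977338-115977495. All 3 lay outside protein-coding genes, had neither mark and contained TAAT together with TAAGTG or TGAGTG. *Klf7*, a Krüppel-like factor gene of developing neurons, had 3, and the large homeobox gene *Zfhx3* had 3, all 6 with neither mark. *Pou4f1*, which encodes Brn3a, had 2 with neither mark: chr14:104210752-104210952 with 2 TGAGTG and a CAGCTG, and chr14:104314687-104314949 with none of these strings. *Sox11* had 2 with neither mark, of which chr12:27461811-27462138 held 2 TAAGTG and 1 TGAGTG.

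Of the 25 peaks in these domains 3 were open and none overlapped H3K27Ac, beside 19.7% and 11.47% over all solitary motif-free peaks, and with so few peaks nothing is read from the difference. The open peaks were chr2:79369344-79369459 in the domain of *Neurod1*, a proneural bHLH gene, lying in an intron of *Cerkl*, chr9:74868777-74868858 in an intron of *Onecut1*, and chr18:42343479-42343631 in the domain of *Pou4f3*. The *Onecut1* peak counted as open only after widening, as the nearest deposited ATAC peak lay 167 bp away. A second peak in the *Neurod1* domain, chr2:79420330-79420561, lay 1.17 kb from an ATAC peak. The factor genes with 1 peak of neither mark were *Ebf1*, *Eya1*, *Maf*, *Neurog2*, *Pou4f2*, *Prdm8*, *Runx1* and *Sox4*. At *Eya1*, a cofactor gene of sensory placode development, chr1:13860458-13860584 lay 0.564 kb from an ATAC peak. At *Prdm8* the distance of chr5:98100615-98100768 to the nearest ATAC peak was 66.5 kb. Among the 23 factor genes with no solitary motif-free peak were *Runx3*, *Etv1*, *Shox2* and *Isl2*, of which *Runx3* itself overlaps the excluded BAC span.

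Receptors of neurotrophic factors had a solitary motif-free peak in 5 of 13 domains (38.5%, median domain 304 kb). *Ntrk3*, which encodes TrkC, the receptor by which the neurons were defined, had 1: chr7:78546722-78546944, in an intron 25.1 kb from a TSS, open, with 2 TGAGTG, 2 CAGCTG and no TAAT. *Ntrk2* (TrkB) had 4, all with neither mark, and *Ngfr* (p75) had 2. Of the *Ngfr* pair, chr11:95585221-95585454, intronic and 2.40 kb from the *Ngfr* TSS, overlapped both marks and was 63.2% G + C. *Gfra1*, a coreceptor of GDNF, had 1 open intronic peak, chr19:58419723-58419848. *Ret*, the signalling receptor of the GDNF family, had 1 peak with neither mark and is named outside the rule, its values having been seen.

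Axon guidance and neuronal adhesion genes had a peak in 30 of 57 domains (52.6%), with a median domain of 1410 kb, and 0.718 per Mb, which is below the value over all genes. Beside *Nrxn3* with 6, *Cdh13*, *Ntm* and *Plxna4*, a semaphorin receptor gene, had 4 each, and 11 of those 12 had neither mark, beside 75.7% of all solitary motif-free peaks. The 4 at *Plxna4* also counted for *1700012A03Rik*. Ion channel genes of sensory neurons had a peak in 12 of 42 domains (28.6%, 254 kb). *Cacna1e*, a voltage-gated calcium channel gene, had 2. *Scn10a*, which encodes the sodium channel of nociceptors, had 1 with H3K27Ac only, chr9:119632854-119632979, intronic, with 1 TAAGTG and 1 TGAGTG and 1 CAGCTG. Outside the naming rule, and picked after its values were seen, *Scn3a* had 1 with both marks (chr2:65414385-65414549). Genes used by most neurons had a peak in 7 of 25 domains (28%, 282 kb), led by *Rbfox1* with 4 and *Gap43*, *Rbfox3* and *Stmn2* with 2 each. The open one at *Gap43*, a growth cone gene, was chr16:42717314-42717469. LIM-homeodomain and LIM cofactor genes had a peak in 4 of 21 domains (19.0%, 349.8 kb), namely *Isl1*, *Lmo1*, *Lmo4* and *Lmx1a*. No peak lay in the domain of *Ldb1*.

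Lists of other cells were not free of the peaks. Motor and other spinal neuron genes had one in 6 of 21 domains (28.6%, 311 kb), including *Chat*, which encodes the enzyme of acetylcholine synthesis, the limb motor neuron factor gene *Foxp1*, *Aldh1a2* and *Pax7*. The peak at *Chat* also counted for the neighbouring *Slc18a3* of the same list. Sympathetic and chromaffin genes had one in 3 of 12 (25%, 166 kb). Glial and neural crest genes had one in 4 of 14 (28.6%, 376 kb), with 2 each at *Ednrb* and *Pax3*, and mesenchyme and endothelial genes in 5 of 16 (31.2%, 499 kb). The 2 at *Ednrb* are the same peaks as the 2 given for its neighbour *Pou4f1*, and the 2 at *Pax3* also counted for *Epha4*. All 11 peaks in those 2 sets of domains had neither mark, as had 75.7% of all solitary motif-free peaks. The lowest shares were those of heart and pancreas genes (3 of 19, 15.8%, 201 kb), myeloid and lymphoid genes (2 of 20, 10%, 56.2 kb) and genes used by every cell (2 of 20, 10%, 54.1 kb), where domains were shortest in the last 2. No test was run between lists, and domain length differed among them as given.

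**Figure D5:**
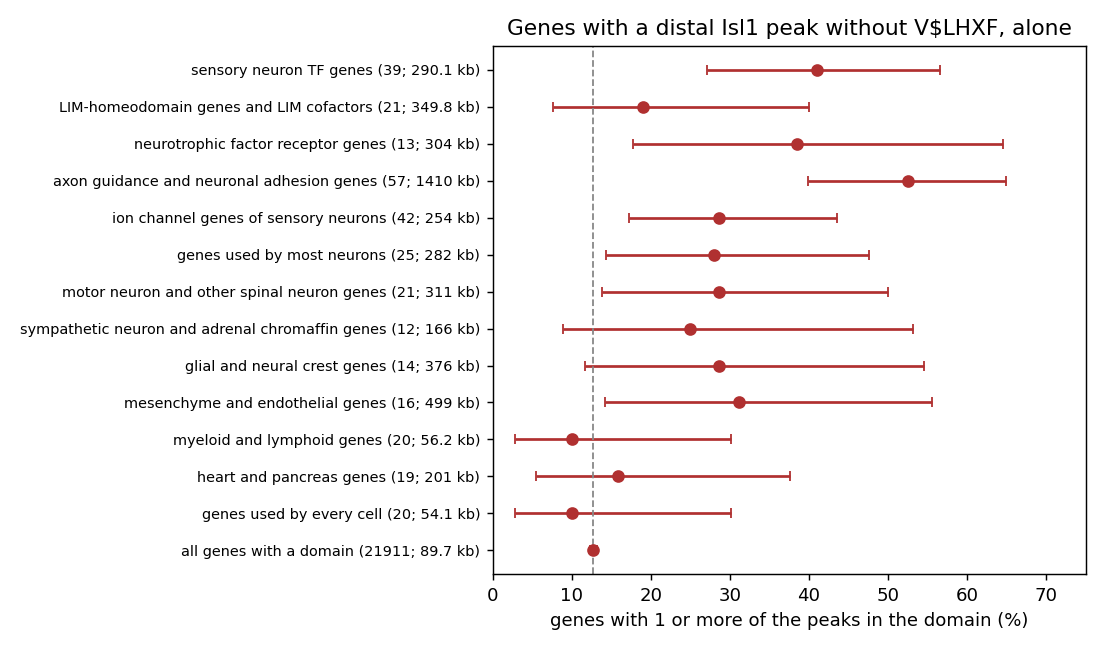
Share of genes with 1 or more solitary motif-free Isl1 peaks in the domain (x axis, %) for 13 gene lists and all genes, with 95% Wilson intervals, where the brackets give the number of genes and the median domain length. Sensory neuron TF genes stand at 41.0% with 290.1 kb and axon guidance genes at 52.6% with 1410 kb, against 12.7% with 89.7 kb over all genes (dashed line).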

How the data were processed

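CUT&RUN and ATAC libraries of E11.5 TrkC+ neurons had been processed by the authors with Cutadapt, Bowtie2, Picard 1.119, SAMtools and MACS2. The deposited files used here, 5 consensus peak lists, hold mm10 positions and a motif score per peak (V$LHXF for Isl1, V$BRNF for Brn3a), with no depth. Peaks stand in a list when found in several samples of that antibody. Overlap meant 1 bp after widening ATAC peaks to at least 500 bp and the others to at least 300 bp about the midpoint. TSSs and genes came from GENCODE, sequence and soft mask from GRCm38.p6. The 9 Fisher's exact tests were adjusted together (Benjamini-Hochberg). Near-copies were found with megablast. Methods were tested on simulated data. Named were the 15 genes with most peaks (ties by symbol), every listed sensory TF gene with one, up to 4 genes of each other list (exceptions are stated), and the 5 widest peaks. Classes, gene lists and the peaks themselves were chosen with earlier results of these data known, and the strings TAAGTG and TGAGTG, the arrays and near-copies after the sequences were examined. Alternatives covered overlap, widening, widths, repeat limits and gene assignment. Serum control samples have no peak list and were not analysed here. Tools were Python 3.11.15, pandas 2.3.3, numpy 2.4.6, BLAST+ 2.17.0, scipy 1.17.1, pysam 0.24.0, matplotlib 3.10.9 and statsmodels 0.14.6.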

Additional observations from a re-analysis of the deposited data

How the results depend on the processing

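Of 70 alternative odds ratios, 64 kept their direction and their side of the threshold, and of 8 alternative counts 7 stayed within 1.5 times. The number of solitary motif-free peaks ran from 1554 to 2059. Against solitary peaks with V$LHXF, the ATAC odds ratio was 1.06 within quartiles of width (interval 0.916 to 1.24) and 0.848 without peaks that have a near-copy (adjusted p = 0.0401, Fisher's exact test). The H3K27Ac odds ratio was 1.30 within quartiles of width (interval 1.07 to 1.57), and among open peaks it was 1.35 when the overlap had to cover 50% of the shorter peak (adjusted p = 0.0493, exact test). Without near-copies the odds ratio of lying in a protein-coding gene was 1.16 (adjusted p = 0.0242, exact test). Counting any masked base in place of 50% turned the repeat odds ratio to 0.938 (adjusted p = 0.385, exact test). Assigning each peak to the nearest TSS gave 1656 genes in place of 2784. Apart from width, whose strata by construction compare peaks of like width, the cause was not tested. The near-copy filter and ATAC widening to 300 bp were chosen after seeing the data. The ATAC and H3K27Ac comparisons with shared motif-free Isl1 peaks and with Brn3a peaks kept their calls under every alternative run. No paired analysis was possible because the lists are consensus lists with no value for a single sample, and for the same reason no sample could be left out in turn. Peak calling depth, sample spread and peak strength cannot be judged from these lists.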
